A study of Homo sapiens with 6 samples.

Results

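The accessible chromatin around 10 genes of the oxidant, haem and iron response was described in KMS-11, a human multiple myeloma line derived from a cancer of antibody-secreting plasma cells. The 10 genes are a fixed list out of 19970 protein-coding genes, namely NFE2L2 and KEAP1 (the regulator NRF2 and its inhibitor), HMOX1 and SLC48A1 (haem), NQO1, TXNRD1 and SRXN1 (oxidant defence), and FTH1, FTL and SLC40A1 (iron). For each gene, peaks of 6 ATAC-seq libraries within 50 kb of the gene body were merged into regions, 190 of 216029 regions in all. ATAC-seq uses the Tn5 transposase to insert sequencing adapters into open DNA, and a peak is a stretch where such insertions pile up. In the 3 control libraries the cells carried the lentiviral vector given in the labels as LentiV2, and in the 3 knockdown libraries the treatment is given as LentiV2_ATF4g3, a guide against the stress transcription factor ATF4. All 6 are labelled KMS-11 with genotype WT and are numbered as biological replicates. The knockdown rests on 1 guide in 1 cell line, and its mode of action is not in the labels. ATF4, the NF-kB subunit p52 and the gene BACH1 are named in the study's title, and the comparison asks how accessible regions near these genes differed when ATF4 was knocked down.

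NRF2, encoded by NFE2L2, is a transcription factor that binds antioxidant response elements together with small MAF proteins and switches on genes of oxidant defence, haem breakdown and iron storage. KEAP1 holds NRF2 in the cytoplasm and hands it to a ubiquitin ligase until oxidants or electrophiles modify it. BACH1 is a haem-sensing repressor that competes at the same elements, and HMOX1, with its enhancers upstream of the promoter, is its best known target. ATF4 and NRF2 are also known to act on some of the same stress genes. Plasma cells secrete large amounts of disulfide-bonded antibody, a process that produces oxidants.

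Annotated promoters of TXNRD1, KEAP1 and NQO1 are shown because an accessible region covered each in all 6 libraries. TXNRD1 (both starts) and KEAP1 (its inner start) hold the members' only matches to the 5 motifs searched, and NQO1 had the start region with the highest mean rank. Each runs from 250 bases before to 50 bases after the start site, 5′ to 3′ on the strand of the gene, from RefSeq on GRCh38.p14. Capitals mark matches to the antioxidant response element TGACNNNGC on either strand.
TXNRD1 upstream start, chr12:104215529-104215828, plus strand: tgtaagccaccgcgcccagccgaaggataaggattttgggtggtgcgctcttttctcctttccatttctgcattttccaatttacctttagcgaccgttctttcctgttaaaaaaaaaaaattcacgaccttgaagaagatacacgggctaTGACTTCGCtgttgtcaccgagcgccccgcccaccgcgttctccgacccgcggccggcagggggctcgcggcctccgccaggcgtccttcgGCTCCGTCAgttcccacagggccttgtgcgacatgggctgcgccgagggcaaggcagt
TXNRD1 downstream start, chr12:104286782-104287081, plus strand: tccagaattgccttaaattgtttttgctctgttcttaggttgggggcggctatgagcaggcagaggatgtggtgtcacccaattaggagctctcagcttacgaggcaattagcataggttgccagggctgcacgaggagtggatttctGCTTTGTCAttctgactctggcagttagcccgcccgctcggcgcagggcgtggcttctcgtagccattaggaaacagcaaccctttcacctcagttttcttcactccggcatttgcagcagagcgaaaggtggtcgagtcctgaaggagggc
KEAP1 inner start, chr19:10502722-10503021, minus strand: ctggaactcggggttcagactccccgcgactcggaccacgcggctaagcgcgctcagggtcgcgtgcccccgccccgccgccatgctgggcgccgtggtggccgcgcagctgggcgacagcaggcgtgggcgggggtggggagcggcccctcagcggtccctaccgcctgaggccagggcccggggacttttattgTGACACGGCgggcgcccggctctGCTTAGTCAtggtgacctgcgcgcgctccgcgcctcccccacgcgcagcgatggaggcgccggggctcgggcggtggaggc
NQO1 start, chr16:69726511-69726810, minus strand: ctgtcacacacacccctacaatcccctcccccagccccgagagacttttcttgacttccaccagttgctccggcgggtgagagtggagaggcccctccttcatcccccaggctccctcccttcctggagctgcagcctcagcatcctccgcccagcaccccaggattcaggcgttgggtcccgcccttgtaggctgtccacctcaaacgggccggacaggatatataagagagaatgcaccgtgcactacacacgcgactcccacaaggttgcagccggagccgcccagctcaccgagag
The upstream TXNRD1 promoter held a match whose first base lies at −99 from the start site and another at −8, the downstream promoter held 1 at −102, and the KEAP1 promoter held matches at −54 and −31. Of 35116 promoters of this length in the table, 13.3% held at least 1 match to TGACNNNGC. The other motifs, searched on both strands, were the AP-1 site TGACTCA (4.95% of all promoters), the MAF recognition element (0.111%), the ATF4 element TGATGNAAN (3.61%) and the E-box CACGTG (7.26%). The AP-1 and MAF motifs can overlap the antioxidant response element. None of these other letters occurred in the windows of the 8 members with a promoter in the table, which says only that they are not in these windows. HMOX1 and FTH1 had no entry. A match is a description of letters and not a measured binding site.

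Libraries of the 2 groups differed in depth. The background pileup, the number of overlapping sequence tags that the peak caller expected at a typical position, was 2.79 to 3.52 in the control libraries and 2.15 to 2.51 after knockdown, and peaks covered 67.0 to 70.7 Mb and 63.0 to 63.9 Mb. Summit pileup over that background was lower after knockdown even at regions listed in all 6 libraries, with a median ratio of knockdown to control of 0.688 over 68049 such shared regions and 0.671 over the 84 near the members. Their part in the results below was not tested, and regions were therefore compared by rank within a library. Gene ends of all 8 plasma cell markers checked, such as SDC1, IRF4 and XBP1, were listed in all 6 libraries, while 4 of 6 myeloid, 2 of 6 T and NK cell, 4 of 6 erythroid and 5 of 6 epithelial and stromal markers were listed in none. Listed in all 6 libraries were 3 of the T and NK cell markers (CD3D, CD8A and NCAM1) and 1 of each other type (CD68, HBA1 and EPCAM), with a −log10 q at CD8A of 243, 191 and 193 in the controls. The region over ATF4 was listed in every library, with a −log10 q of 302, 332 and 296 in control cells and 112, 119 and 197 after knockdown, and accessibility does not check the knockdown of its RNA or protein. In bulk libraries, fewer cells with an open region and less opening per cell cannot be told apart.

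Every member had an open start in both groups. HMOX1 and FTH1 had no strand given, and the gene end with the stronger region was taken as their start. For these genes the choice favoured an open start. The 11 start regions, with TXNRD1 counted at both of its starts, were found in all 6 libraries, with a −log10 q of at least 32.6, and listed peaks covered 565 to 2159 bp of them. The fold of a region is the largest of the authors' values over local background at its summits, and can come from another summit than the highest pileup. Its rank is given as a percentile among the 68049 shared regions of the same library. A region was called changed when limma, fitted on normal scores of these ranks over all shared regions, gave a Benjamini-Hochberg adjusted p under 0.05. None of the 11 start regions passed (limma adjusted p from 0.102 to 0.806), against 2.88% of shared regions lower and 2.39% higher. By rank, 8 of the 11 had a higher mean after knockdown and 3 a lower one, and in 5 the knockdown libraries all ranked above the controls. Such a separation upwards occurred in 19.7% of all shared regions and one downwards, seen at none of the 11, in 13.0%, and shared regions at gene ends as a class shifted up, 79.1% of them, so the 5 are read beside that.

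**Figure D1:**
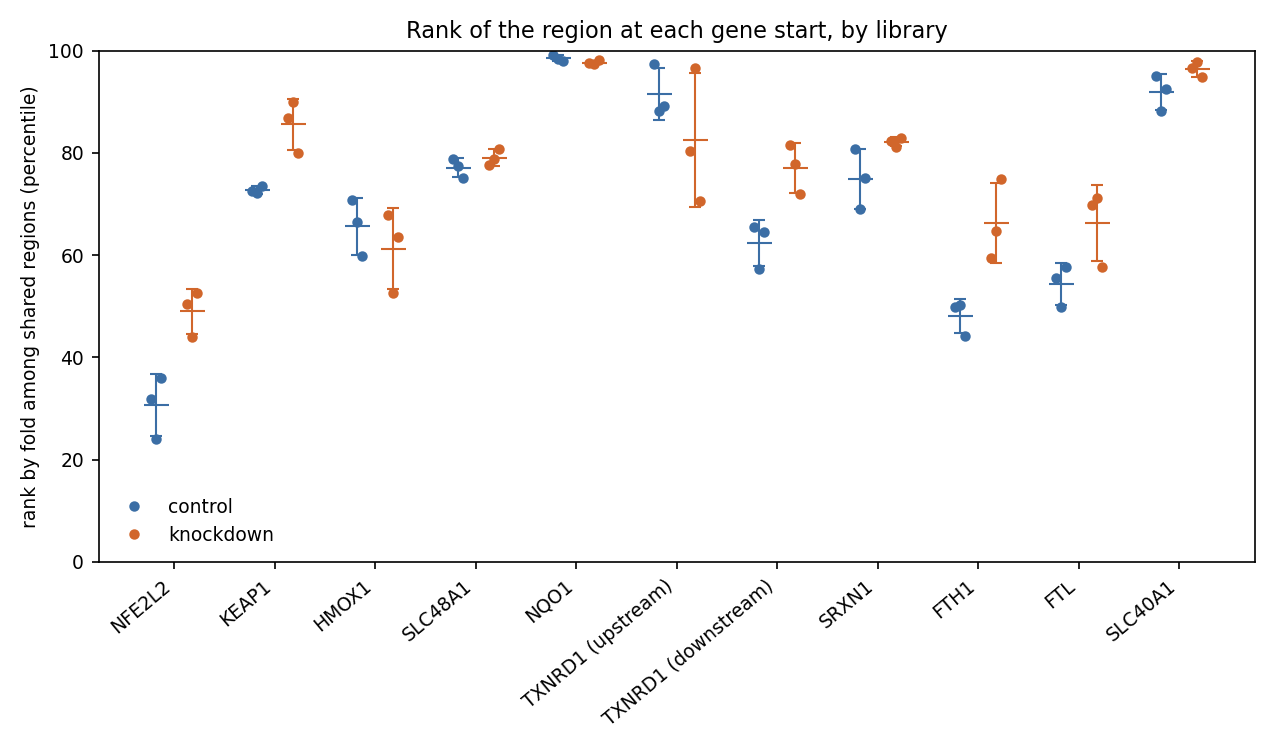
Rank of the region at each gene start by fold among the 68049 shared regions, as a percentile (y axis), for each gene (x axis). Points are libraries, horizontal bars are means and vertical bars SDs of 3 libraries. NQO1 stays above the 97th percentile in all 6 libraries, and the knockdown points lie above the control points at NFE2L2, KEAP1, the downstream start of TXNRD1, SRXN1 and FTH1.

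The regulators' starts did not pass. The start region of NFE2L2 (chromosome 2, 177263439 to 177265599, hg38, over both annotated starts) had a fold of 7.13, 7.05 and 7.27 in control cells and 6.70, 6.50 and 7.83 after knockdown. Its rank was the 31.9th, 24.0th and 35.9th percentile in control cells and the 50.4th, 44.1st and 52.6th after knockdown. The groups did not overlap in rank, while the fold itself overlapped, and the rank difference of 0.49 normal scores (SE 0.19) did not pass (limma adjusted p = 0.131). The start region of KEAP1 (chromosome 19, 10501992 to 10503491) had a fold of 13.4, 15.2 and 12.8 in control cells and 12.8, 14.2 and 12.2 after knockdown. It ranked at the 72.6th, 72.1st and 73.5th percentile and at the 86.9th, 89.9th and 80.0th (0.47, SE 0.17, limma adjusted p = 0.102). Width at both starts differed little, with 2144 to 2147 bp against 2120 to 2159 bp at NFE2L2 and 1398 to 1454 bp against 1409 to 1446 bp at KEAP1.

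Upstream of NFE2L2, a distal region was weaker after knockdown. The region lay between genes, 7.40 kb from the start of NFE2L2 (chromosome 2, 177272123 to 177273133), with NFE2L2 as the nearest protein-coding gene. Its highest summit had a pileup of 108, 116 and 89 tags in control cells and 24, 31 and 32 tags after knockdown. Tags are not corrected for depth, which was lower after knockdown. By rank, all 3 knockdown libraries lay below all 3 controls, as in 13.0% of all shared regions. The fold was 15.9, 20.3 and 13.4 in control cells and 6.54, 9.13 and 9.34 after knockdown, and listed peaks covered 933, 985 and 990 bp against 602, 633 and 669 bp. The rank fell from 83.7 ± 7.10 to 59.0 ± 9.05 percentile points (SD, n = 3 each), by 0.78 normal scores (SE 0.20, limma adjusted p = 0.0472). Of all shared regions, 2.88% passed as lower. Pileup over background was 0.365 times that of the controls, where the median shared region stood at 0.688. The call was lost without control replicate 1, 2 or 3 (limma adjusted p = 0.115, 0.160 and 0.0667), without knockdown replicate 1, 2 or 3 (0.115, 0.0692 and 0.0663) and with ranks taken within location class (0.0927). By rank of width the region did not pass either (limma adjusted p = 0.248), but under that ranking 0 of all 68049 shared regions passed. A second region at the far edge of the window, 49.9 kb upstream (chromosome 2, 177314585 to 177315225), chosen after its values were seen, had a pileup of 89, 113 and 87 tags in control cells and 22, 23 and 27 tags after knockdown, but did not pass by rank (limma adjusted p = 0.223). With ranks taken by −log10 q it passed as lower, as did 4.25% of all shared regions.

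**Figure D2:**
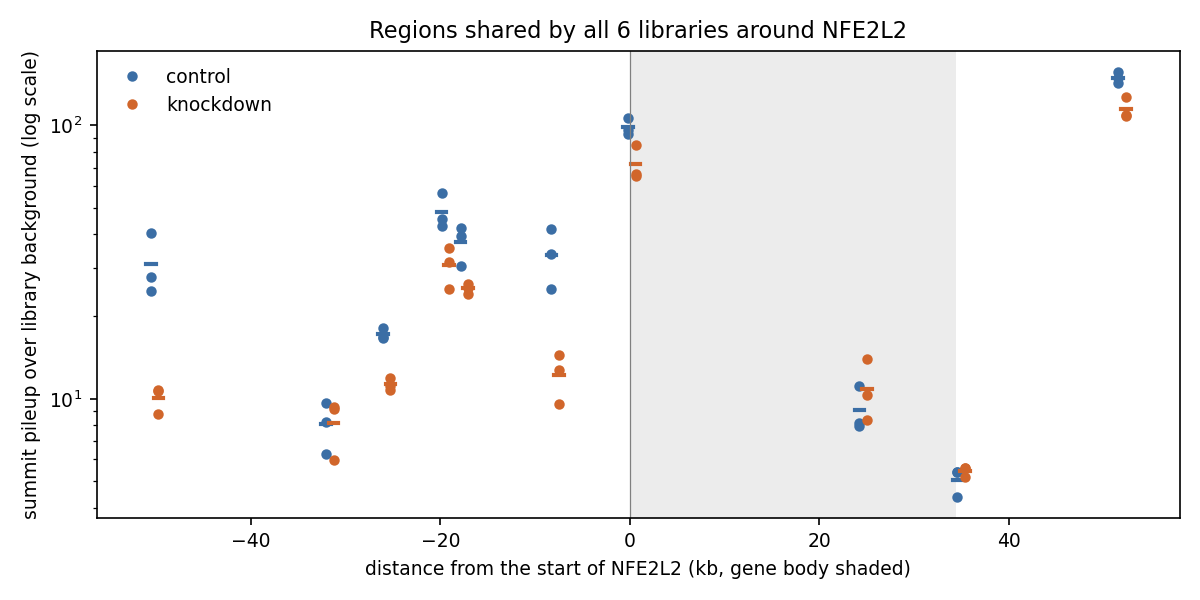
Pileup at the highest summit over the library background (log scale, y axis) for the 10 shared regions around NFE2L2, against the distance of the region from the start of the gene (x axis, kb, gene body shaded, negative values upstream). Points are libraries, side by side for the groups, and short lines are means of 3. The region about 8 kb upstream has 25.3 to 41.6 in control cells and 9.56 to 14.4 after knockdown.

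HMOX1 encodes haem oxygenase 1, which opens the haem ring and frees its iron, and a region upstream of it was stronger after knockdown. The region lay between genes, 8.74 kb from the low-coordinate end of HMOX1, taken as the start of the gene (chromosome 22, 35371438 to 35372352). Its highest summit had a pileup of 47, 44 and 43 tags in control cells and 65, 49 and 52 tags after knockdown. Every knockdown library held more tags than every control, although the knockdown libraries had the lower background. Among the 84 shared regions near the members this was the case for 1, and among all 68049 shared regions for 0.182%. The fold was 6.62, 8.14 and 5.62 in control cells and 9.53, 8.36 and 7.67 after knockdown. The rank rose from the 28.1st, 30.8th and 22.9th percentile to the 71.2nd, 59.5th and 51.0th, by 0.88 normal scores (SE 0.20, limma adjusted p = 0.0356). Of all shared regions, 2.39% passed as higher. Pileup over background was 14.2 ± 1.83 in control cells and 23.1 ± 2.61 after knockdown (SD, n = 3 each), a ratio of 1.62. Its width did not follow, with 773, 915 and 842 bp covered in control cells and 725, 894 and 709 bp after knockdown. The call was lost without control replicate 1, 2 or 3 (limma adjusted p = 0.0953, 0.108 and 0.0923) and without knockdown replicate 1 or 2 (0.0837 and 0.0645). By rank of width the region did not pass either (limma adjusted p = 0.751), but under that ranking 0 of all 68049 shared regions passed.

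The other regions of HMOX1 did not pass. A region 3.65 kb upstream of the start (chromosome 22, 35376722 to 35377445) had a fold of 4.64, 5.01 and 4.23 in control cells and 4.63, 4.45 and 4.47 after knockdown (limma adjusted p = 0.230). Its knockdown ranks, 19.6 to 28.6, lay above its control ranks, 11.3 to 13.5. The start region (35380606 to 35381785) had a fold of 13.0, 14.0 and 10.6 in control cells and 8.96, 7.48 and 9.32 after knockdown, and its ranks overlapped (−0.11, SE 0.17, limma adjusted p = 0.702). Near the other end, a region inside the gene (35392381 to 35392824) ranked at 27.6 ± 7.24 in control cells and 12.2 ± 10.9 after knockdown (SD, n = 3 each, limma adjusted p = 0.191). Of the 12 shared regions of the window 6 had a higher and 6 a lower mean rank, and regions inside TOM1 and MCM5 lie in the same window.

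**Figure D3:**
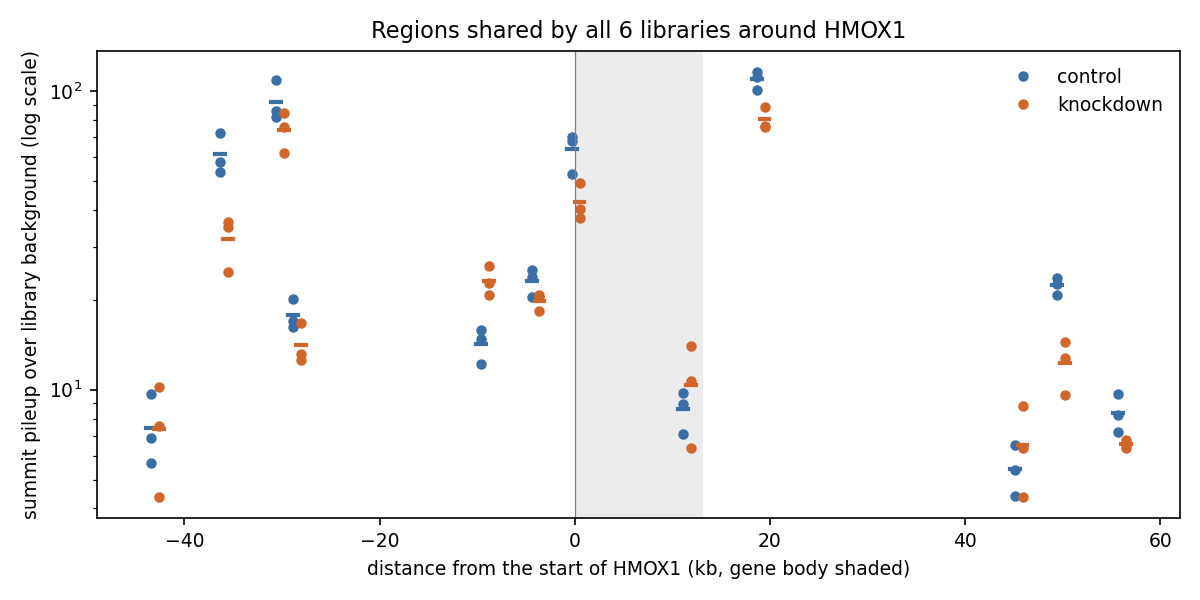
Pileup at the highest summit over the library background (log scale, y axis) for the 12 shared regions around HMOX1, against the distance from the start of the gene (x axis, kb, gene body shaded). Points are libraries and short lines are means of 3. About 9 kb upstream the knockdown libraries (20.7 to 25.9) lie above the controls (12.2 to 15.8), while at the start they lie below.

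SLC48A1, which encodes a carrier of haem out of the endosome and lysosome, had the window with the most regions. It held 30 regions, 16 of them shared, of which 5 had SLC48A1 as nearest gene and others lay in HDAC7, RAPGEF3, ENDOU and near VDR. The region over its promoter in the table (chromosome 12, 47772961 to 47774134) had a fold of 14.6, 16.3 and 13.2 in control cells and 10.7, 11.5 and 12.3 after knockdown. The fold was lower in each knockdown library, yet the rank was nearly level, 77.1 ± 1.87 and 79.1 ± 1.61 (SD, n = 3 each, limma adjusted p = 0.806).

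NQO1, a quinone reductase long used as a readout of NRF2, had the start with the highest mean rank of the list in both groups. Its region (chromosome 16, 69726151 to 69727230) had a pileup of 449, 455 and 439 tags in control cells and 226, 206 and 273 tags after knockdown. By pileup the start of FTL was similar after knockdown, with 231, 237 and 240 tags. The percentile at NQO1 was 99.1, 98.5 and 97.9 in control cells and 97.6, 97.4 and 98.1 after knockdown, which overlap (limma adjusted p = 0.519). In knockdown replicate 2 the start of SLC40A1 ranked higher, at 97.9. A region 16.3 kb beyond the other end, inside NFAT5 (chromosome 16, 69691806 to 69693059), had the smallest p of that window, with 37, 43 and 46 tags in control cells and 10, 14 and 19 tags after knockdown (limma adjusted p = 0.132).

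TXNRD1 encodes thioredoxin reductase 1, which keeps thioredoxin reduced, and its starts, whose promoters are shown above, were both open in every library. The upstream start (chromosome 12, 104215415 to 104216197) ranked at the 97.4th, 88.2nd and 89.1st percentile in control cells and at the 80.5th, 96.6th and 70.6th after knockdown (−0.38, SE 0.32, limma adjusted p = 0.467). The downstream start (104286484 to 104287487) ranked at the 65.5th, 57.3rd and 64.5th percentile and at the 81.6th, 77.8th and 72.0th (0.43, SE 0.16, limma adjusted p = 0.120). The knockdown libraries overlap the controls at the upstream start and lie above them at the downstream one, and the difference between the starts was not tested. At SRXN1, which encodes the sulfiredoxin that repairs overoxidised peroxiredoxins, the start (chromosome 20, 652125 to 653770) ranked at 74.9 ± 5.86 and 82.2 ± 0.899 (SD, n = 3 each, limma adjusted p = 0.352). The region near its other end (645318 to 646210) ranked at 82.2 ± 5.84 and 67.7 ± 12.9 (limma adjusted p = 0.198).

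The ferritin genes encode the heavy (FTH1) and light (FTL) subunits of the iron storage shell, and their start regions had the highest ratios of knockdown to control signal of the 11. At FTH1 the region lay at the high-coordinate end, taken as the start of the gene (chromosome 11, 61966963 to 61968344). Its pileup over background was 57.4, 66.7 and 46.6 in control cells and 39.8, 54.9 and 66.9 after knockdown, a ratio of means of 0.947. At FTL (chromosome 19, 48965011 to 48966262, over both ends of this short gene) the values were 115, 125 and 110 against 92.0, 110 and 95.6, a ratio of 0.849. The other 9 start regions had ratios of 0.662 to 0.746, and the median over all shared regions at gene ends was 0.730. How many of those regions had ratios as high as the ferritin starts was not counted. The groups overlap in pileup over background at FTH1. They also overlap narrowly at FTL, with 110.227 in control replicate 3 and 110.233 in knockdown replicate 2. The rank tests did not pass (limma adjusted p = 0.112 for FTH1 and 0.254 for FTL). A region 17.3 kb from the start of FTH1 (61949315 to 61950350), at an end of the chloride channel gene BEST1, had the smallest p of the FTH1 window. It had 145, 200 and 193 tags in control cells and 24, 32 and 42 tags after knockdown, not corrected for depth. By rank it missed the threshold (−0.57, SE 0.17, limma adjusted p = 0.0653). With ranks taken by −log10 q, where 4.25% of shared regions were lower and 3.94% higher, or with ranks taken within location class, that region passed.

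SLC40A1 encodes ferroportin, the exporter of iron from cells, and was the 1 member of 10 whose window passed the test for covered DNA, with less after knockdown. In the gene body and 50 kb on either side, the bases under listed peaks were 7795, 7864 and 8030 in control cells and 5482, 6218 and 5522 after knockdown. Scaled to the total covered length of each library, they were 7568 ± 338 and 6008 ± 475 bp (SD, n = 3 each). On the log2(value + 200 bp) scale the difference was −0.33 (SE 0.09, limma adjusted p = 0.0455), with no overlap of the groups. At the start of the gene the widths overlapped, with 991, 1019 and 1132 bp covered in control cells and 915, 1083 and 1033 bp after knockdown. Over the whole window, unscaled bases were fewer both in shared regions and in regions not listed in every library. Shared regions together held 5850 ± 285 and 4499 ± 190 bp, and regions not shared held 1903 ± 89.0 and 624 ± 292 bp (SD, n = 3 each). A region of the latter kind, at the low-coordinate end of the gene (chromosome 2, 189559833 to 189560501), was listed in all 3 controls, with 15, 10 and 16 tags, and in no knockdown library. Weak peaks outside any region went the other way, from 143 ± 204 to 618 ± 166 bp. The call was lost without control replicate 1, 2 or 3 (limma adjusted p = 0.105, 0.105 and 0.169), without knockdown replicate 1 or 3 (0.114 and 0.0918), without a filter (0.0507), with peaks of a −log10 q of at least 2 or 5 (0.0738 and 0.537), within 10 kb (0.132), in the gene body alone (0.849) and for regions nearest to the gene (0.145).

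Over all 84 shared regions near the members, 51 had a higher and 33 a lower mean rank after knockdown, with a median difference of 0.12 normal scores against 0.03 over all shared regions. The SLC48A1 window alone held 14 of the higher and 2 of the lower regions, and the NFE2L2 window 8 and 2. Regions passing limma were the 1 upstream of HMOX1, higher, and the 1 upstream of NFE2L2, lower. Of all shared regions 2.39% passed as higher and 2.88% as lower. At gene ends the median was 0.22 over 29 member regions and 0.29 over all such regions, and between genes it was 0.23 over 25 member regions and −0.05 over all. In gene bodies it was 0.03 over 30 member regions and −0.04 over all. Mean ranks were higher in 19 of 29 member regions at gene ends, 16 of 30 in gene bodies and 16 of 25 between genes. Over all shared regions of these classes, 79.1%, 46.1% and 45.6% were higher. In the remaining windows the region with the smallest p did not pass. It lay at an end of the autophagy gene ATG4D near KEAP1 (chromosome 19, 10543479 to 10544539, 0.71, limma adjusted p = 0.0940) and at an end of the cell death gene BAX near FTL (48954390 to 48955445, 0.65, limma adjusted p = 0.0895). Near SLC48A1 it lay at an end of RPAP3 (chromosome 12, 47705375 to 47707022, 0.38, limma adjusted p = 0.167). Beyond the low-coordinate end of SLC40A1, by 32.8 kb, a region (chromosome 2, 189526754 to 189527770) ranked at 50.6, 47.0 and 48.5 in control cells and at 72.4, 67.0 and 59.2 after knockdown (0.45, limma adjusted p = 0.112). Its knockdown ranks all lay above its control ranks, while covered DNA over the whole SLC40A1 window was lower. With ranks taken by −log10 q this region passed as higher, as did 3.94% of all shared regions.

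Covered DNA near the other members did not pass the test. Of the 10 members 1 was lower and 0 were higher in limma, against 2.67% of 19686 genes tested lower and 2.88% higher. At an unadjusted limma p under 0.05, NFE2L2, SLC48A1 and SLC40A1 were lower and none was higher, against 13.3% of all genes lower and 8.91% higher. NFE2L2 had 10404 ± 513 bp in control cells and 8831 ± 212 bp after knockdown (−0.23, SE 0.07, limma adjusted p = 0.0740). SLC48A1 had 16079 ± 1736 and 14189 ± 436 bp (−0.17, SE 0.08, 0.208), and FTH1 4771 ± 860 and 3914 ± 224 bp (−0.26, SE 0.12, 0.236; limma adjusted p in both, SD with n = 3 each). In these 4 windows all knockdown libraries lay below all controls, as in 16.8% of all genes. In none of the 10 windows did they all lie above the controls, as they did in 9.63% of all genes. TXNRD1 went the other way, with 5215, 4218 and 5548 bp in control cells and 6630, 5560 and 5441 bp after knockdown, which overlap (0.23, SE 0.12, limma adjusted p = 0.270). HMOX1 (0.02), FTL (0.01), KEAP1 (−0.02), SRXN1 (−0.09) and NQO1 (−0.10) had log2 differences within 1 SE of 0. The median of the 10 members was −0.09 and that of all genes −0.04. Without scaling, where 21.0% of all genes were lower and their median moved to −0.16, NFE2L2, SLC48A1, FTH1 and SLC40A1 were lower.

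**Figure D4:**
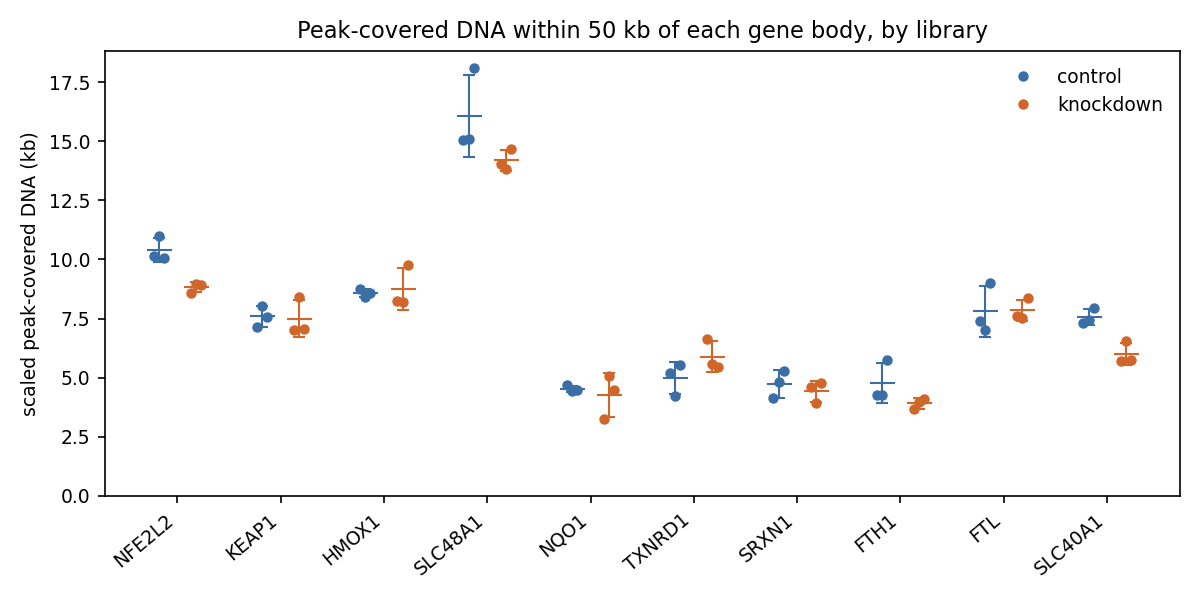
Peak-covered DNA within 50 kb of each gene body, scaled to the total covered length of the library (y axis, kb), for the 10 members (x axis). Points are libraries, horizontal bars are means and vertical bars SDs of 3 libraries. Control and knockdown points separate at NFE2L2, SLC48A1, FTH1 and SLC40A1.

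Fewer regions were found near the members after knockdown. A region was found in a library if it overlapped a peak whose −log10 q was 2 or more. Of the 190 regions, 123, 131 and 127 were found in control cells and 100, 101 and 118 after knockdown, a difference of means of −20.7 (p = 0.1 by a two-sided exact permutation test, which with 3 libraries a group can go no lower). The ratio of the means was 0.837 near the members and 0.918 over all regions. With a −log10 q of 5 or more the order turned, with 0.784 near the members and 0.735 over all regions. The knockdown counts lay below all control counts at 3 members, as in 15.5% of all gene windows. These were NFE2L2 (16, 17 and 14 regions against 11, 11 and 13), SLC48A1 (24, 26 and 25 against 19, 18 and 22) and SLC40A1 (14, 13 and 14 against 8, 10 and 11). At TXNRD1 they lay above, with 10, 10 and 11 against 12 in each knockdown library, as in 2.13% of gene windows. That direction turned at a −log10 q of 5 or more, where TXNRD1 had 8, 8 and 9 regions against 7, 7 and 6. Regions found in all 6 libraries were 79 of the 190 (41.6%), against 28.7% of all regions. Members' regions also lay more often within 1 kb of a gene end, 21.6% against 8.74%, and the 2 figures were not compared by a test.

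Of the 190 regions 5 were found in the 3 control libraries and overlapped no peak after knockdown (2.63%, against 1.50% of all regions), and 0 were found after knockdown alone (against 0.102%). A control-only region 1.20 kb upstream of the start of NFE2L2 (chromosome 2, 177265925 to 177266119) had 92, 101 and 103 tags but a fold of 2.23, 2.43 and 2.23 over its local background, and it lay beside the much stronger start region. The second near NFE2L2 (177193315 to 177193519), nearest to HNRNPA3, had 19, 13 and 22 tags. Inside KEAP1, a control-only region (chromosome 19, 10492159 to 10492374) had 12, 14 and 17 tags. In the SLC48A1 window, a region at an end of ENDOU (chromosome 12, 47725973 to 47726216) had 30, 14 and 19 tags and a region nearest to HDAC7 (47825938 to 47826384) had 37, 26 and 32. The 5 regions had a −log10 q between 2.65 and 13.8 in control cells, and the lower depth of the knockdown libraries moved with their absence, a part that was not tested.

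Around the rest of the pathway, covered DNA passed for 2 genes, both higher, where 2.88% of all genes were higher and 2.67% lower. These were the NRF2 redox targets AKR1C1, an aldo-keto reductase (3092 ± 577 and 5426 ± 1039 bp, 0.77, SE 0.15, limma adjusted p = 0.0137), and ABCC1, an exporter of glutathione conjugates (7021 ± 1109 and 9280 ± 192 bp, 0.40, SE 0.10, limma adjusted p = 0.0382; SD, n = 3 each). The AKR1C1 call was lost without control replicate 3 (limma adjusted p = 0.0561) and for nearest regions (0.0826). It was also lost with peaks of a −log10 q of 5 or more (a difference of 0.35, limma adjusted p = 0.149), within 10 kb (0.36, 0.203) and in the gene body (0.36, 0.407). The ABCC1 call was lost without control replicate 2 or 3 or knockdown replicate 1, 2 or 3 (limma adjusted p = 0.100, 0.0877, 0.0699, 0.0771 and 0.0706). It was also lost without scaling (0.0683), with peaks of a −log10 q of 2 or more (0.172), within 10 kb (0.0590), in the gene body (0.118) and for nearest regions (0.106). Of the 18 genes of that list 2 were higher and 0 lower, with 12 of 18 means lower and a median of −0.07. None of 13 genes that control NRF2 passed (median −0.02), and those with the smallest p were its relative NFE2L1 (−0.18, limma adjusted p = 0.141) and the kinase gene GSK3B (−0.25, 0.145). None of 15 genes of haem synthesis and breakdown passed (median −0.03), led by ALAD, an enzyme of haem synthesis (−0.14, limma adjusted p = 0.290), and FLVCR2 (−0.15, 0.399). None of 15 tested genes of iron uptake, storage and control passed (median −0.08), led by the metal importer SLC39A14 (−0.32, limma adjusted p = 0.104) and the iron chaperone PCBP1 (−0.22, 0.133).

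**Figure D5:**
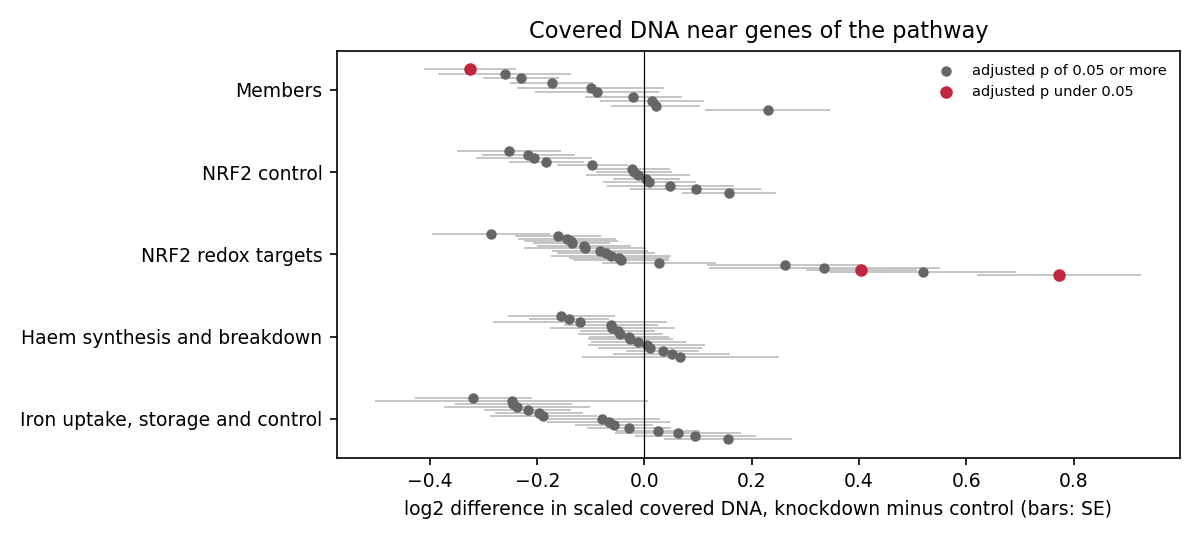
Log2 difference in scaled covered DNA within 50 kb of the gene body, knockdown minus control (x axis, bars are SEs), for the 10 members and the 4 pathway lists (rows). Each point is a gene, and red points have a limma adjusted p under 0.05, namely SLC40A1, AKR1C1 and ABCC1.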

How the data were processed

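The submitters' processing notes name MACS2 and hg38, and each library has its own peak list. For the aligner, read filters and MACS2 settings, nothing is given in the sources used here. Deposited values per summit were the fold (ratio of pileup over local background), the −log10 p, the −log10 q, all from the peak caller, and a deposited score that was not used. Chromosomes 1 to 22 and X were used. Regions were merged over libraries from peaks with a −log10 q of at least 2, and shared regions had a listed peak in all 6. Pileup and background were solved from deposited fold and −log10 p, as whole tags within 0.01 (100% of summits). Covered bases were scaled by library total and tested as log2(value + 200 bp) in genes covered in at least 3 libraries. Ranks of the fold over shared regions were tested as normal scores. Both tests used limma 3.58.1 in R 4.3.3 (trended, robust eBayes; Benjamini-Hochberg adjustment) and were tested on simulated data. Gene positions and promoters came from RefSeq tables on GRCh38.p14, without exons or introns. HMOX1 and FTH1 had no strand in the table, so the gene end with the stronger region was used. Members and lists were chosen with earlier results of these data known. Named were all members, their start regions, group-specific regions and the region with the smallest p per window, and in each pathway list the genes past the threshold or else the 2 with the smallest p. Regions named outside this rule included the nearer upstream region of HMOX1 and the region inside HMOX1. They also included that at the low-coordinate end of SLC40A1 and the second region upstream of NFE2L2. Alternatives changed pseudocount, filter, scaling, threshold, window, ranking, replicate block and libraries. The labels number biological replicates without saying whether they were separate cultures, so p-values measure only the spread between these libraries.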

Additional observations from a re-analysis of the deposited data

How the results depend on the processing

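Of the 10 members, the number with less covered DNA in limma was 1 (SLC40A1) with a pseudocount of 50 or 1000 bp, 0 without a filter, with peaks of a −log10 q of 2 or more or of 5 or more, within 10 kb, in the gene body and for nearest regions, 4 without scaling, and 0 to 1 when a library was left out (1 without knockdown replicate 2). Over all genes, limma called 525 lower and 567 higher, and 4136 and 457 without scaling, 194 and 149 at a −log10 q of 2 or more, 905 and 3606 at 5 or more, 123 and 126 within 10 kb, 1 and 5 in the gene body, 40 and 67 for nearest regions, and 94 to 584 lower and 187 to 551 higher when a library was left out. The log2 difference of SLC40A1 stayed below 0 in all 16 alternatives, and that of TXNRD1 above 0.

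Differences that did not pass changed sign in some settings. With peaks of a −log10 q of 5 or more, where the median of all genes moved to 0.10, they were 0.11 for NFE2L2, 0.13 for SLC48A1, 0.0237 for NQO1, 0.14 for SRXN1, 0.0523 for FTH1, 0.12 for NFE2L1 and 0.0809 for FLVCR2. In the gene body they were 0.06 for NFE2L2, 0.0922 for NQO1, 0.19 for FTH1 and 0.0436 for FLVCR2. Within 10 kb they were 0.11 for NQO1 and −0.14 for FTL, and for nearest regions 0.11 for NQO1 and 0.0618 for FLVCR2. Without scaling they were −0.10 for HMOX1 and −0.11 for FTL, and at a −log10 q of 2 or more −0.10 for HMOX1 and 0.0480 for FLVCR2. KEAP1 had 0.0211 without control replicate 2 and 0.0234 and 0.0186 without knockdown replicates 1 and 3, HMOX1 −0.0591 without knockdown replicate 3 and at most 0.0629 without any other library, NQO1 0.0748 without knockdown replicate 1 and −0.23 at the lowest, without knockdown replicate 2, and FTL −0.0219, −0.0570 and −0.0326 without control replicates 1 and 2 and knockdown replicate 3. Why these values moved was not tested.

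By rank, 1 member region was lower and 1 higher, against 2.88% and 2.39% of all shared regions. Ranking by −log10 q gave 4 lower and 2 higher, where 4.25% of all shared regions were lower and 3.94% higher. Ranking by width gave 0 and 0, as it did over all 68049 shared regions. The lower ones by −log10 q were both regions named upstream of NFE2L2, the one near BEST1 and one near FTL that starts at 48978691. The higher ones were that upstream of HMOX1 and that beyond the low-coordinate end of SLC40A1. Leaving out a library gave 0 lower and 0 to 3 higher, with 35 to 1459 of all shared regions lower and 4 to 723 higher, against 1957 and 1625 with all libraries. Rank within location class gave 778 and 578, and its member regions were the one near BEST1 and that upstream of HMOX1. The HMOX1 region kept its direction in all 11 alternatives (limma adjusted p from 0.0645 to 0.108 where a left-out library ended the call), as did the NFE2L2 region, whose call was also lost by width (limma adjusted p = 0.248). Control-only regions near the members numbered 8 with any listed peak counted as found, 1 at a −log10 q of 5 or more and 5 to 7 without a library, and knockdown-only regions 0 throughout. These counts were not set beside the shares over all regions at the same settings, and nothing about the members is read from them.

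Same-numbered libraries did not deviate together (r of 0.05, 0.06 and 0.04 over genes for covered DNA, and 0.04, 0.00 and −0.01 over shared regions for rank), although for covered DNA each library correlated best with its own number. With the replicate number as a block, 632 genes were lower and 672 higher, SLC40A1 alone of the members among them (limma adjusted p = 0.0496). By rank the block left 1306 shared regions lower and 558 higher, with 0 member regions lower and 1 higher, that of HMOX1 (limma adjusted p = 0.0564 for the NFE2L2 region).

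Depth sets a limit on weak regions: the background pileup was lower in every knockdown library, and a region with few tags that goes unlisted there is not shown to be closed.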
